A study of Homo sapiens with 6 samples.

Results

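Interferon-stimulated genes are the genes that a cell switches on after an interferon binds its receptor. A list of 50 genes under that heading was chosen by name and not by a rule on their level, but with earlier results of these data known. It also holds 3 receptor genes and 6 transcription factors of the pathway, so not every gene of the list is an induced one. The genes were followed in human Caco2 colon cancer cells resistant to methotrexate (MTX), a drug that blocks folate metabolism, and in the parental cells of that line. Of the 50 genes, 48 had a probe set that the annotation used here named for that gene alone, among 19775 genes with one. All 48 were bright enough to be tested. STAT2 and IFI30 had no probe set named for them alone in that annotation and were not analysed here. RNA was hybridised to 6 Affymetrix HG U133 Plus 2.0 arrays, 3 for resistant cells and 3 for parental cells. The resistant cells grew in 10 µM MTX and had been obtained in the laboratory by stepwise increases of the drug, in medium without glycine, hypoxanthine and thymidine and with dialysed serum. The parental cells, which are sensitive to MTX, grew in Ham's F12 medium with fetal bovine serum, so that the medium and the drug changed together with the cells and cannot be told apart here. Nothing says whether the 3 samples of a group were separate cultures or how many clones the resistant cells hold, and the p-values below therefore cover the variation among these arrays, some or all of which may be technical.

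Type I interferons (alpha and beta) signal through the receptor pair IFNAR1 and IFNAR2 and the kinases JAK1 and TYK2 to a complex that holds STAT2 and IRF9 and binds the interferon-stimulated response element in the promoters of its targets. Type III interferons (lambda) use another receptor but the same complex, and type II interferon (gamma) uses IFNGR1 and IFNGR2 and acts through another element, GAS. The products of the induced genes detect foreign RNA or DNA, degrade RNA, block the entry or copying of viruses, attach the ubiquitin-like protein ISG15 to other proteins, or adjust the response itself. Intestinal epithelium is a known site of the type III response.

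RefSeq promoter windows (250 bases before to 50 bases after a gene's start, assembly GRCh38.p14) were at hand for 38 of the 50 genes. The core of the response element was searched on both strands as GAAANNGAAA. It was found in at least 1 window of 24 of the 38 genes (63.2%), compared with 1195 of all 27305 genes with a window (4.38%). The GAS palindrome, searched as TTCNNNGAA, which reads alike on both strands, was found in 10 of the 38 (26.3%) and in 2560 of all genes (9.38%). A match is a description of letters and not of a bound site. The core was found in 8 of the 11 genes with a window that were higher in resistant cells (72.7%) and in 16 of the 24 that did not pass the test (66.7%), so that it was common on both sides. The 100 bases before the start are shown for 8 genes that stand for these outcomes, 5 that were higher in resistant cells (RTP4, IFIT3, IFI44, PARP9 and OAS1), a pair whose change did not pass the test (OAS3 and IFI44L), and IFI16, which was lower. Each runs 5′ to 3′ along its gene, and capitals mark the core or its reverse complement.
RTP4, chr3:187368285-187368384, + strand: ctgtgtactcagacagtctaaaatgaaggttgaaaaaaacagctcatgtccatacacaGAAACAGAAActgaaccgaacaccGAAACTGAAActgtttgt
IFIT3, chr10:89332429-89332528, + strand: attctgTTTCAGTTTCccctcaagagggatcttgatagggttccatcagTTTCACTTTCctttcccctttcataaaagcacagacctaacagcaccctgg
IFI44, chr1:78649689-78649788, + strand: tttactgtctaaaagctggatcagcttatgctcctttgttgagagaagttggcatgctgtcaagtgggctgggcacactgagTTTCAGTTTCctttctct
PARP9, chr3:122564301-122564400, - strand: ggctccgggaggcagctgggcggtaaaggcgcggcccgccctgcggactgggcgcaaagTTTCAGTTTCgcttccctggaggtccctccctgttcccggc
OAS3, chr12:112938374-112938473, + strand: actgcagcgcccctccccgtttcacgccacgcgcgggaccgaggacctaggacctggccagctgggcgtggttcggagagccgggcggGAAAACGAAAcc
IFI44L, chr1:78620348-78620447, + strand: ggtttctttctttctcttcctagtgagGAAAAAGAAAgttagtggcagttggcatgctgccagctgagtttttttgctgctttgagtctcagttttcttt
OAS1, chr12:112906862-112906961, + strand: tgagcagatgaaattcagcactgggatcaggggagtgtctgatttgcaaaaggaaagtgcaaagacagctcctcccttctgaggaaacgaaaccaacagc
IFI16, chr1:159009807-159009906, + strand: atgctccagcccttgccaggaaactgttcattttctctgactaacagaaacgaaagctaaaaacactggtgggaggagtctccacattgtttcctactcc
RTP4 and IFIT3 each held the core at 2 places in the stretch shown. OAS1 and IFI16 held no match to this pattern in their windows, although OAS1 was higher and IFI16 lower in resistant cells. Both stretches shown hold gaaacgaaa, with 1 base between the 2 GAAA runs. The search asked for 2 bases there and could not match it, so a window without a match may still hold a response element. IFI44, IFIT3, PARP9 and IFI16 have more than 1 start in RefSeq, of which 1 is shown, and the PARP9 window lies on the opposite strand to that of its neighbour DTX3L and overlaps it.

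Every level below is a deposited signal divided by the median signal of its array, so that 1 is the median of all probe sets, and it is that of the brightest probe set of a gene. Levels of different genes come from different probes and were not set against each other. Changes are log2 values, resistant over parental, with a standard error (SE) from a limma fit over 26563 probe sets, and adjusted p-values are Benjamini-Hochberg values over all of them, two-sided. Genes with an adjusted p below 0.05 are called higher (rose) or lower (fell). Parental array 3 stood apart. Its correlation with the other parental arrays over tested probe sets was 0.946 and 0.949, while parental arrays 1 and 2 correlated at 0.966 and resistant arrays at 0.968 to 0.971. With the resistant arrays, parental array 3 correlated at 0.935 to 0.939, and parental arrays 1 and 2 at 0.914 to 0.929. Over all tested probe sets it thus lay nearer to the resistant arrays than the other parental arrays did. Counts are therefore also given without parental array 3. Of the 12 markers of intestinal epithelium, 9 were above the filter and 5 rose, with summed levels of 2607 to 2737 on resistant arrays and 1681 to 2166 on parental arrays, while CDX1, CDX2 and FABP1 lay below the array median in both groups. Leukocyte markers, measured for 8 of 10 genes, summed to 9.03 to 12.7 on resistant arrays and 11.1 to 20.1 on parental arrays, with PTPRC, which defines leukocytes, below the array median. Fibroblast markers summed to 9.70 to 10.7 on resistant arrays and 6.72 to 7.44 on parental arrays. Of them, 1 rose, the matrix gene LUM (3.20 ± 0.55, adjusted p = 0.00717). Every parental value of LUM lay below the array median and every resistant value above it. LUM thus passed the filter only through the resistant arrays, and its change and adjusted p are a description for that reason. Endothelial markers summed to 2.88 to 3.43 on resistant arrays and 2.28 to 4.17 on parental arrays. The part of these markers in the results below was not tested, and in RNA from whole cultures fewer cells of a kind and less RNA per cell cannot be told apart.

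Of the 48 genes of the list tested, 13 rose (27.1%) and 1 fell (2.08%) in resistant cells, where 5.75% of all probe sets rose and 4.27% fell. The receptor gene IFNGR1 is counted among the 13. The changes were small. A change of at least 2-fold was passed by 4 that rose (8.33%), ISG20, RTP4, IFI44 and OASL, against 2.77% of all probe sets, and by 1 that fell, IFI16, against 1.9%. The median log2 change of the 48 genes was 0.24, and that of all tested probe sets 0.004. The change was above 0 in 38 genes and below in 10 (79.2% above 0, against 50.3% of all probe sets), and without parental array 3 it was above 0 in 30 and below in 18 (62.5%, against 48.3%). All 3 resistant arrays lay above all 3 parental arrays in 18 genes (37.5%, against 17.7% of all probe sets) and below them in 2 (IFI16 and IRF3, against 14.4% of all probe sets), and the groups overlapped in the other 28. The number that rose was 8 when signals were not divided by the array median and 7 without limma's intensity trend. The shares of all probe sets under those settings are not given here, so whether the drop is particular to the list cannot be read from these counts. A plain t-test on the same log2 values called 0 of the 48 after adjustment over all probe sets. It called few probe sets at all, 198 higher and 121 lower of 26563, so the 0 says little about the list. At an unadjusted p below 0.05 it gave 14 higher and 1 lower. The share of all probe sets at an unadjusted p below 0.05 is not given, here or below, so such counts have no background to be read against. The study's own software and its error-model filter were not rerun, so these t-test counts are not those of the study's method. The plot of all 48 changes by role shows positive values in most roles, except the type I receptors, the type II GTPases and a few single genes.

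**Figure D1:**
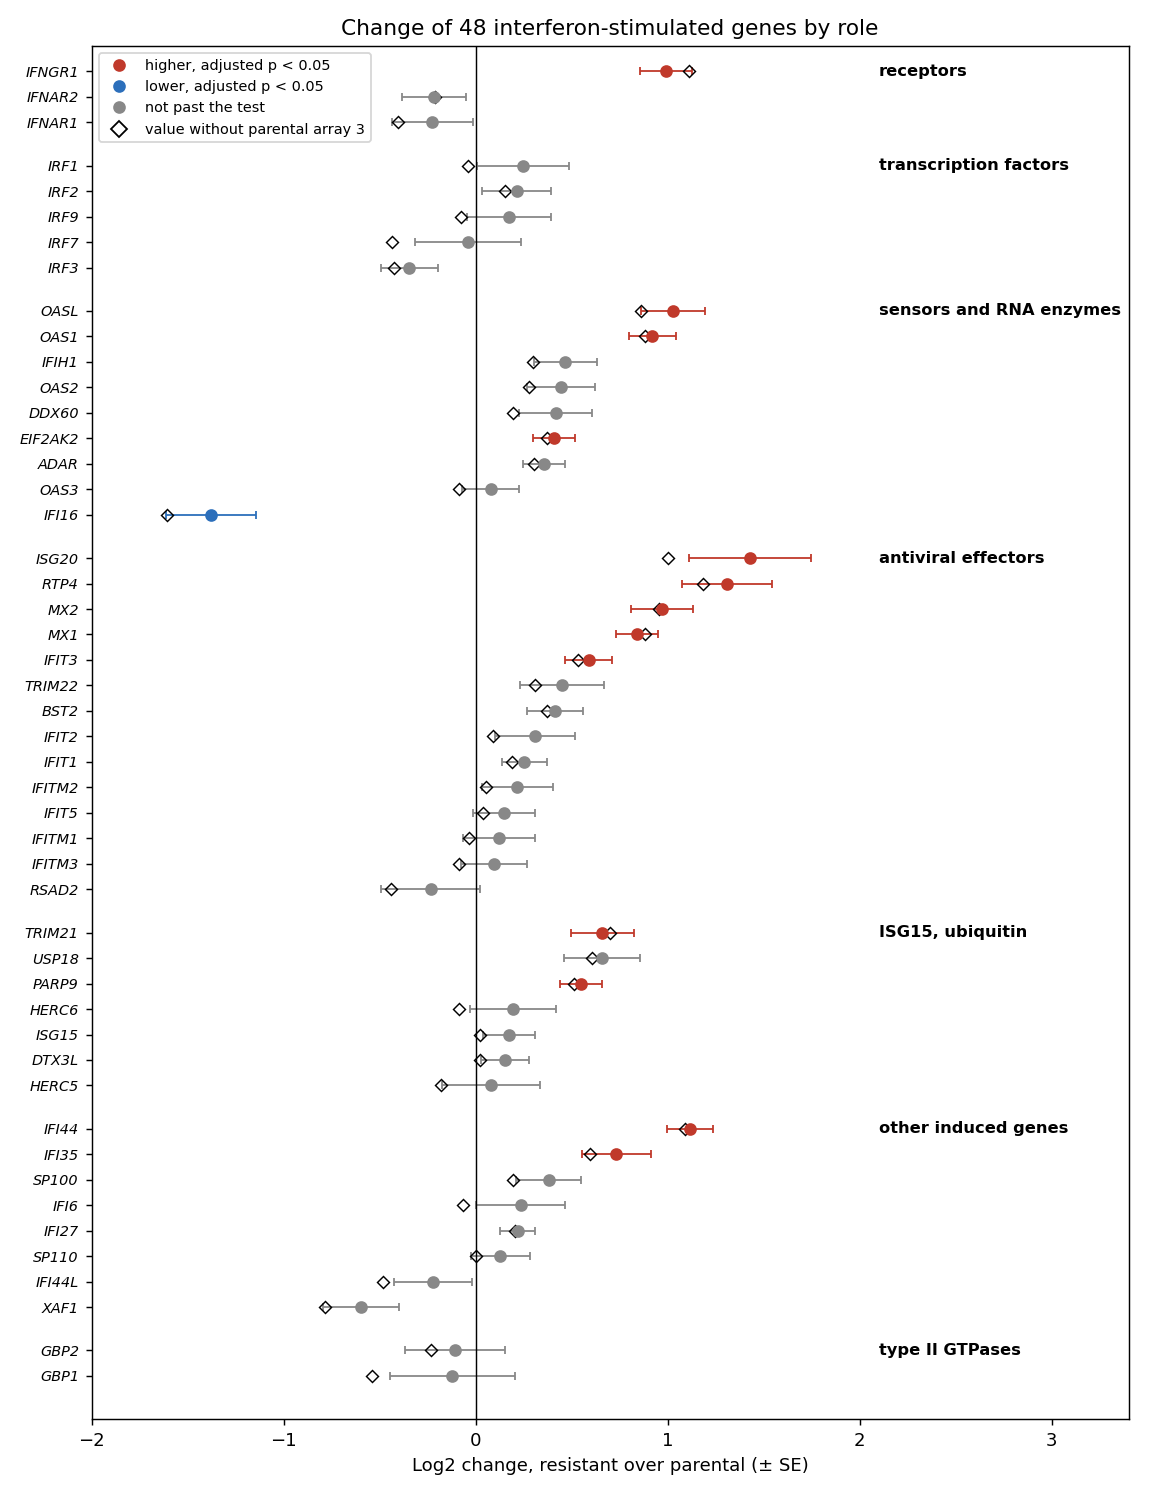
Log2 change of each of the 48 genes, resistant over parental cells, with its SE (filled points and bars, 3 arrays per group), grouped by role, and the same value without parental array 3 (open diamonds). The 13 red genes and the 1 blue gene (IFI16) passed the test, and most diamonds lie to the left of their points.

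The receptors showed unequal changes. IFNGR1, the ligand-binding chain of the receptor for type II interferon, was at 81.8, 79.3 and 89.0 times the array median on resistant arrays 1 to 3, and at 38.05, 39.05 and 49.2 times on parental arrays 1 to 3. The groups were well separated, and IFNGR1 rose by 0.99 ± 0.14 (adjusted p = 0.00211). A second IFNGR1 probe set gave 1.09 ± 0.15. Both are of a type that can read several transcripts, and the remaining dim probe set of IFNGR1 gave 0.44 ± 0.40 and did not pass the test (adjusted p = 0.521). IFNAR1, a chain of the type I receptor, was at 3.55, 3.48 and 3.16 on resistant arrays, and at 4.42, 4.57 and 3.09 on parental arrays. Its change of −0.23 ± 0.21 did not pass the test (adjusted p = 0.532, 95% interval −0.70 to 0.25), and the lowest of the 6 values was on parental array 3. IFNAR2, the other chain, was at 6.62, 6.68 and 8.10 on resistant arrays, and at 7.51, 9.02 and 8.31 on parental arrays. Its groups overlapped, with a change of −0.22 ± 0.17 (adjusted p = 0.433, 95% interval −0.59 to 0.15).

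None of the 5 transcription factors passed the test in limma (0 of 5, with 0 higher and 1 lower at an unadjusted p below 0.05). IRF9, the DNA-binding subunit of the complex with STAT2, was at 47.1, 51.8 and 59.6 on resistant arrays, and at 64.6, 47.5 and 33.0 on parental arrays. The resistant values lay inside the parental range, and the change was 0.17 ± 0.22 (adjusted p = 0.649, 95% interval −0.31 to 0.66). IRF3, which switches on interferon genes after infection, was at 33.3, 34.8 and 36.6 on resistant arrays, and at 53.8, 40.7 and 39.6 on parental arrays. It was lower on every resistant array than on any parental array, by a change of −0.35 ± 0.15 (adjusted p = 0.167). IRF1, a factor known from the type II response, was at 14.6, 14.9 and 19.2 on resistant arrays, and at 16.8, 16.4 and 9.12 on parental arrays. The groups overlapped, and the change was 0.25 ± 0.24 (adjusted p = 0.548). IRF2, which is known as an antagonist of IRF1, was at 4.37, 4.58 and 4.17 on resistant arrays, and at 4.27, 3.61 and 3.48 on parental arrays (0.21 ± 0.18, adjusted p = 0.485). IRF7, which amplifies interferon production and is itself induced by interferon, was at 85.0, 84.7 and 96.9 on resistant arrays, and at 129, 112 and 52.4 on parental arrays. The 3 resistant arrays agreed closely, whereas parental array 3 was far below both others. The change of IRF7 was −0.04 ± 0.28 (adjusted p = 0.944), and −0.44 without parental array 3 (adjusted p = 0.0113).

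Among the 9 nucleic acid sensors and RNA-binding antiviral enzymes, 3 rose and 1 fell, with a median log2 change of 0.42. OAS1 belongs to the oligoadenylate synthetases, which sense double-stranded RNA and activate the ribonuclease RNase L. It was at 160, 171 and 205 on resistant arrays, and at 102, 91.5 and 88.8 on parental arrays. No values overlapped, and OAS1 rose by 0.92 ± 0.12 (adjusted p = 0.00182). OASL, a related protein without that activity in human cells, was at 75.2, 74.9 and 92.5 on resistant arrays, and at 45.6, 43.0 and 31.2 on parental arrays. It rose by 1.03 ± 0.17 (adjusted p = 0.00506), and both probe sets of OAS1 and both of OASL passed the test. OAS3 and OAS2, which are synthetases too, differed from this pair in outcome. OAS3 was at 124, 114 and 132 on resistant arrays, and at 134, 128 and 92.9 on parental arrays (0.08 ± 0.15, adjusted p = 0.771). The brightest probe set of OAS2 gave 0.44 ± 0.18 (adjusted p = 0.142) and a second one 0.88 ± 0.15 (adjusted p = 0.00686). Whether OAS1 and OAS3 changed by different amounts was not tested.

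EIF2AK2, the kinase PKR, which stops translation when it meets double-stranded RNA, was at 90.6, 91.6 and 86.1 on resistant arrays, and at 72.5, 66.1 and 63.8 on parental arrays. It rose by 0.41 ± 0.11 (adjusted p = 0.0444), but only in the brightest of 3 probe sets, the others giving 0.00 and 0.69. Leaving out any array other than parental array 3 ended its call (adjusted p = 0.0689 to 0.173). IFI16, a sensor of DNA in the nucleus and cytoplasm, was at 18.9, 18.0 and 29.1 on resistant arrays, and at 68.2, 62.7 and 40.8 on parental arrays. It was the gene of the list that fell, by 1.38 ± 0.23 on the log2 scale (2.60-fold lower, adjusted p = 0.00639). All 3 of its probe sets fell, by 1.31 to 1.55 on the log2 scale, and all are of types that can share probes with other transcripts or read several. The array that was highest among resistant arrays was array 3, and the lowest parental array was array 3, so that both lay nearest to the other group. IFIH1, the RNA sensor MDA5, was at 62.9, 58.8 and 73.6 on resistant arrays, and at 53.1, 52.2 and 37.2 on parental arrays. The groups did not overlap, but 0.47 ± 0.16 did not pass the test in the brightest probe set (adjusted p = 0.0996), while a dim one gave 1.03 ± 0.28 (adjusted p = 0.0441). ADAR, which edits adenosine in double-stranded RNA, gave 0.35 ± 0.11 (adjusted p = 0.0715), and the helicase DDX60 gave 0.42 ± 0.19 (adjusted p = 0.192).

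Of the 14 antiviral effectors, 5 rose and none fell, with a median log2 change of 0.36. The dynamin-like GTPases MX1 and MX2 act on incoming viruses. MX1 was at 167, 164 and 190 on resistant arrays, and at 99.2, 88.9 and 102.5 on parental arrays, and rose by 0.84 ± 0.11 (adjusted p = 0.00177). MX2 was at 58.5, 69.2 and 86.5 on resistant arrays, and at 40.5, 32.7 and 35.2 on parental arrays, and rose by 0.97 ± 0.16 (adjusted p = 0.00604). In neither gene was parental array 3 the lowest parental array. RTP4, an interferon-induced receptor transporter protein with antiviral activity, was at 28.05, 30.1 and 43.9 on resistant arrays, and at 18.6, 11.6 and 11.3 on parental arrays. It rose 2.48-fold, by 1.31 ± 0.23 on the log2 scale (adjusted p = 0.00816), with no overlap. ISG20, an exonuclease that degrades viral RNA, was at 37.9, 32.7 and 46.4 on resistant arrays, and at 21.7, 17.1 and 7.97 on parental arrays. It rose by 1.43 ± 0.32 (adjusted p = 0.0216) and by 1.00 without parental array 3, where it was lowest. A second ISG20 probe set rose by 0.96 ± 0.19, and the call of the first was lost without resistant array 1, 2 or 3 (adjusted p = 0.0837, 0.063 and 0.0974).

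IFIT3 belongs to the IFIT proteins, which bind viral RNA. It was at 236, 223 and 292 on resistant arrays, and at 181, 164 and 153 on parental arrays, and rose by 0.59 ± 0.12 (adjusted p = 0.0169). Its second probe set rose by 0.87 ± 0.17, and the call of the first was lost without resistant array 1 or 3 (adjusted p = 0.0626 and 0.08). The other IFIT genes did not pass the test in their brightest probe sets, with 0.25 ± 0.12 for IFIT1 (adjusted p = 0.199), 0.31 ± 0.21 for IFIT2 and 0.15 ± 0.16 for IFIT5. In IFIT2 a second probe set gave 1.25 ± 0.28 (adjusted p = 0.0224), so that its probe sets disagreed. IFIT1 was at 330, 301 and 380 on resistant arrays, and at 320, 272 and 256 on parental arrays, and the groups overlapped. IFITM1, IFITM2 and IFITM3, membrane proteins that hinder the entry of viruses and are close in sequence, had changes of 0.12, 0.22 and 0.10 with overlapping groups, and of −0.03, 0.05 and −0.09 without parental array 3, and those of IFITM1 and IFITM3 were also below 0 with quantile normalization (−0.03 and −0.06). RSAD2, which makes a chain-terminating nucleotide, was at 32.5, 27.8 and 53.9 on resistant arrays, and at 54.1, 45.4 and 32.1 on parental arrays (−0.23 ± 0.26, adjusted p = 0.599). BST2, which tethers budding virus at the cell surface, gave 0.41 ± 0.14 (adjusted p = 0.0982), and TRIM22, a ubiquitin ligase, 0.45 ± 0.22 (adjusted p = 0.224).

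**Figure D2:**
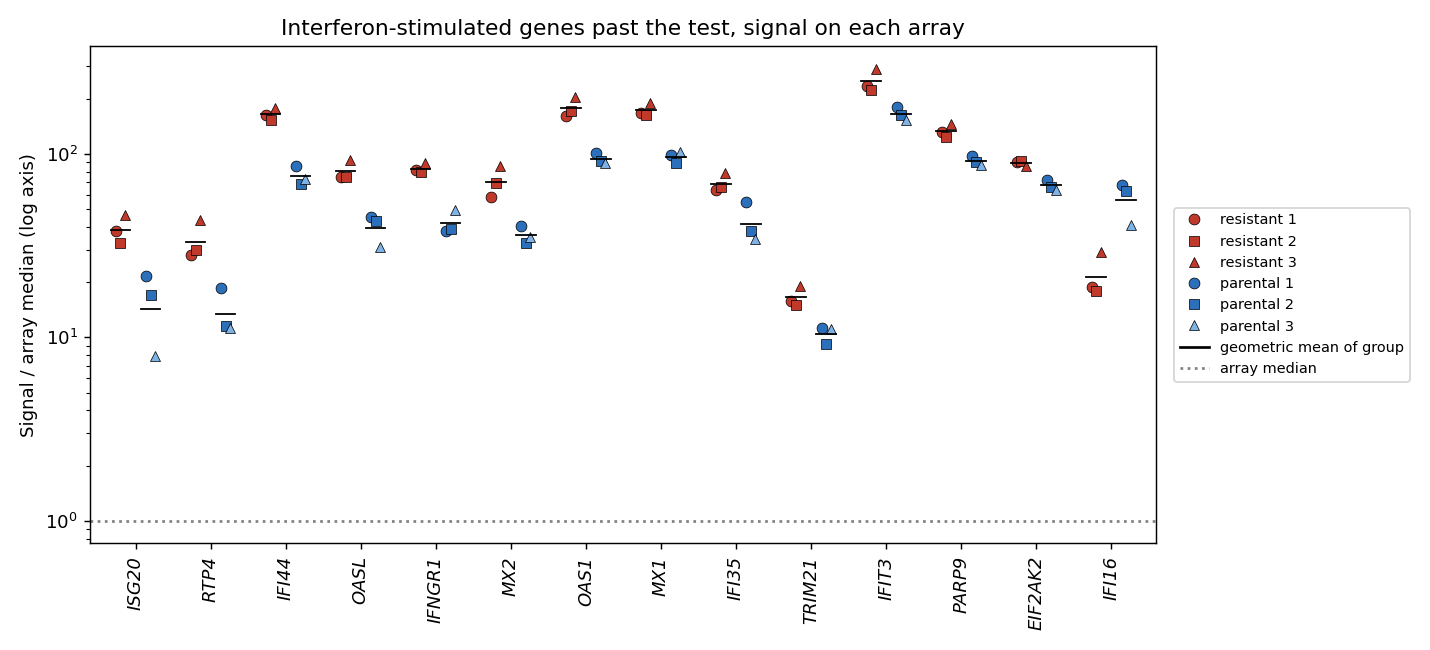
Signal of the 14 genes that passed the test, as multiples of the array median on a log axis, with 1 point per array and a line at the geometric mean of each group (3 resistant arrays in red, 3 parental arrays in blue, parental array 3 in light blue). The groups do not overlap in any of the 14, resistant array 3 is the highest resistant array in all but EIF2AK2, and IFI16 is the gene with lower values in resistant cells.

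The 7 genes of the ISG15 and ubiquitin pathway included 2 that rose. TRIM21, an antibody receptor in the cytosol and a ubiquitin ligase, was at 15.9, 14.9 and 19.1 on resistant arrays, and at 11.3, 9.21 and 11.1 on parental arrays, and rose by 0.66 ± 0.16 (adjusted p = 0.0329). The call was lost without any 1 array other than parental array 3 (adjusted p = 0.0641 to 0.137). PARP9, the partner of the ubiquitin ligase DTX3L, was at 132, 123 and 145 on resistant arrays, and at 97.0, 89.9 and 87.1 on parental arrays. It rose by 0.55 ± 0.11 (adjusted p = 0.0142), in both of its probe sets, and the call was lost without resistant array 1 or 3 (adjusted p = 0.0775 and 0.0844). DTX3L itself, whose promoter window overlaps that of PARP9, was at 121, 124 and 124 on resistant arrays, and at 119, 122 and 92.3 on parental arrays. Apart from parental array 3, all 5 of its values were nearly the same, and the change was 0.15 ± 0.13 (adjusted p = 0.472). USP18, the protease that removes ISG15 and restrains the type I receptor, was at 31.5, 39.1 and 51.1 on resistant arrays, and at 31.0, 22.0 and 23.6 on parental arrays. Its lowest resistant and highest parental values almost met, and 0.66 ± 0.20 did not pass the test (adjusted p = 0.0655), although it did without parental array 3 (0.61, adjusted p = 0.0428). ISG15 was at 438, 468 and 513 on resistant arrays, and at 497, 436 and 337 on parental arrays, with a change of 0.18 ± 0.13 (adjusted p = 0.438). The ISG15 ligase HERC5 (0.08 ± 0.25) and its relative HERC6 (0.19 ± 0.22) did not pass the test either.

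Among 8 other induced genes, 2 rose. IFI44, a cytoplasmic protein of the antiviral response, was at 163, 154 and 178.5 on resistant arrays, and at 86.4, 69.0 and 73.5 on parental arrays. It rose by 1.12 ± 0.12, with the smallest adjusted p of the list (0.000599). A dimmer IFI44 probe set, which is not of a type that reads several transcripts, gave −0.11 ± 0.19 (adjusted p = 0.741), so the rise rests on 1 of 2 probe sets. Its neighbour and relative IFI44L was at 132, 112 and 147 on resistant arrays, and at 188, 175 and 105 on parental arrays. IFI44L lay between the parental arrays and gave −0.22 ± 0.20 (adjusted p = 0.525), and −0.48 without parental array 3 (adjusted p = 0.0103). IFI35, a partner of NMI, was at 63.65, 65.8 and 78.4 on resistant arrays, and at 54.7, 38.2 and 34.2 on parental arrays, and rose by 0.73 ± 0.18 (adjusted p = 0.0317) in its only probe set, which is of a type that can read several transcripts. Without parental array 2 or resistant array 1, 2 or 3 the call was lost (adjusted p = 0.0878, 0.0933, 0.101 and 0.132).

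XAF1, known to promote apoptosis, was at 26.5, 28.8 and 38.5 on resistant arrays, and at 54.8, 51.6 and 35.9 on parental arrays. Parental array 3 lay inside the resistant range, and the change of −0.60 ± 0.20 did not pass the test (adjusted p = 0.0835), whereas −0.78 without that array did (adjusted p = 0.00333). SP100, a component of nuclear bodies, gave 0.38 ± 0.17 (adjusted p = 0.183), with its 6 probe sets between −0.69 and 0.46. SP110, its relative, gave 0.13 ± 0.15 in the brightest probe set, while 2 of its dimmer ones rose, by 0.88 ± 0.15 and 0.69 ± 0.18. IFI6 and IFI27, small proteins strongly induced by type I interferon, gave 0.23 ± 0.23 and 0.22 ± 0.09, and neither passed the test (adjusted p = 0.556 and 0.151). The guanylate-binding GTPases GBP1 and GBP2, known best from the type II response, did not pass the test in limma (0 of 2, and 0 at an unadjusted p below 0.05). GBP1 was at 25.6, 26.0 and 41.7 on resistant arrays, and at 46.1, 42.1 and 18.4 on parental arrays. Array 3 was the highest of the resistant and the lowest of the parental arrays, and the change was −0.12 ± 0.33 (adjusted p = 0.843). GBP2 was at 4.73, 4.11 and 7.81 on resistant arrays, and at 5.37, 7.31 and 4.84 on parental arrays (−0.11 ± 0.26, adjusted p = 0.826).

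The genes of the list moved together between arrays of 1 group, which the contrast between groups does not show. Resistant array 3 was the highest resistant array in 45 of 48 genes (93.8%, against 48.2% of all tested probe sets). Among parental arrays, array 1 was the highest in 42 (87.5%, against 34.6%) and array 3 the lowest in 39 (81.2%, against 42.5%). Parental array 3 lay below the mean of parental arrays 1 and 2 in 44 genes (91.7%, against 54.2%), with a median log2 difference of −0.44, where all probe sets had −0.05. At least 2-fold lower on parental array 3 were 3 genes, ISG20 (−1.27), GBP1 (−1.26) and IRF7 (−1.20), against 5.07% of all probe sets, and 0 genes were at least 2-fold higher, against 3.18%. With the mean of parental arrays 1 and 2 as zero, the median log2 level of the 48 genes was 0.01, 0.03 and 0.32 on resistant arrays 1 to 3, and 0.12, −0.12 and −0.44 on parental arrays 1 to 3. Resistant arrays 1 and 2 thus had a median close to that of parental arrays 1 and 2, with single genes spread to both sides. Because the genes shared these shifts, they are not separate observations of a difference between the cells.

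**Figure D3:**
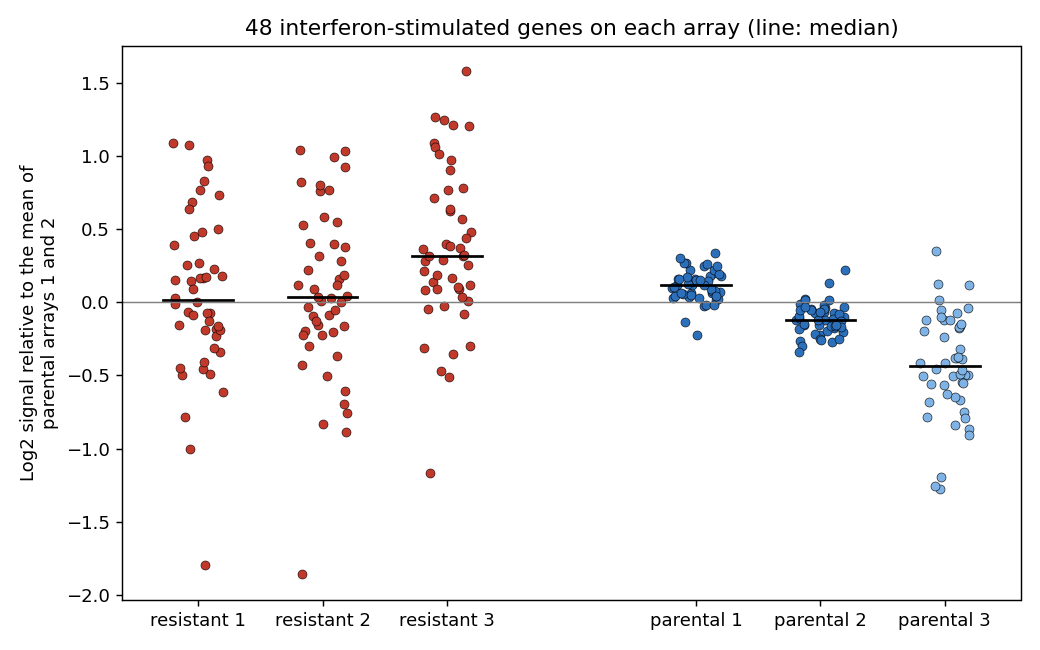
Log2 signal of the 48 genes on each array, relative to the mean of parental arrays 1 and 2, with 1 point per gene and a line at the median (resistant arrays in red, parental arrays in blue, parental array 3 in light blue). The medians are 0.01, 0.03 and 0.32 on resistant arrays and 0.12, −0.12 and −0.44 on parental arrays.

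Without parental array 3, 15 genes rose (31.2%, against 13.5% of all probe sets) and 5 fell (10.4%, against 13.2%), and the median change was 0.12, where all probe sets had −0.02. All 14 genes called with 3 parental arrays were called again. ADAR (0.30, adjusted p = 0.0464) and USP18 joined those that rose, and IRF3 (−0.43, adjusted p = 0.0368), IRF7, IFI44L and XAF1 joined IFI16 among those that fell. All 3 resistant arrays lay above parental array 3 in 42 genes (87.5%, against 37.8% of all probe sets), but above both parental arrays 1 and 2 in 18 (37.5%, against 25.7%) and below both in 7 (14.6%, against 27.3%). The 7 genes that rose in every fit with 1 array left out were OAS1, OASL, IFNGR1, MX1, MX2, RTP4 and IFI44, and IFI16 fell in all of them. In limma without resistant array 1 or without resistant array 3, 7 genes rose in place of 13. The shares of all probe sets in those fits are not given here.

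A list of 80 further genes of the interferon pathway held ligands, receptors, kinases, sensors, inhibitors and 36 further interferon-induced genes. Of the 80, 62 could be tested, and 8 rose and 2 fell (12.9% and 3.23%, against 5.75% and 4.27% of all probe sets). Of these, 5 that rose and 1 that fell were further interferon-induced genes. In limma, 18 were higher and 7 lower at an unadjusted p below 0.05, with no share of all probe sets given to set beside them. Without parental array 3, 11 of the 62 rose and 10 fell, where 13.5% and 13.2% of all probe sets rose and fell. Of the ligands, the type III interferons were higher in resistant cells. IFNL1 was at 4.14, 5.39 and 6.60 on resistant arrays, and at 2.29, 1.37 and 0.867 on parental arrays, and rose by 1.92 ± 0.35 (adjusted p = 0.00886). IFNL2 was at 4.33, 2.65 and 4.31 on resistant arrays, and at 1.19, 1.54 and 0.912 on parental arrays, and rose by 1.63 ± 0.31 (adjusted p = 0.0107). Both were dim and on parental array 3 below the array median, and the IFNL2 probe set may also read IFNL3, a near-identical copy. IFNB1, IFNA1, IFNA2 and IFNG were below the filter and were not tested. IFNE, a type I interferon of epithelia, was at 0.387, 0.462 and 0.452 on resistant arrays, and at 1.36, 2.23 and 1.40 on parental arrays. Every resistant value lay below the array median and every parental value above it, so that IFNE passed the filter only through the parental arrays. Its change of −1.91 ± 0.49 (adjusted p = 0.0381) is a description for that reason, and it did not pass with no filter (adjusted p = 0.0584). The calls of IFNL1 without resistant array 3 (adjusted p = 0.0548), of IFNL2 without resistant array 1 or 3 (0.0693 and 0.0641) and of IFNE without any 1 array but parental array 3 (0.0788 to 0.186) were lost.

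The largest change in that list was in CXCL10, a chemokine that attracts T cells. It was at 29.8, 24.8 and 46.2 on resistant arrays, and at 2.27, 2.56 and 3.34 on parental arrays. CXCL10 rose 12.1-fold, by 3.59 ± 0.24 on the log2 scale (adjusted p = 3.24e-05), and was highest on array 3 in both groups. CXCL11, which binds the same receptor, was at 28.6, 24.5 and 44.3 on resistant arrays, and at 6.81, 7.14 and 2.90 on parental arrays, and rose by 2.60 ± 0.34 (adjusted p = 0.00178). These changes are larger than any of the 48 genes, and they held with any 1 array left out. TLR3, a receptor of double-stranded RNA, was at 8.96, 6.51 and 8.39 on resistant arrays, and at 4.18, 4.02 and 2.90 on parental arrays, and rose by 1.11 ± 0.21 (adjusted p = 0.0108). A second tested TLR3 probe set gave 0.645 and did not pass the test. The partner of IFI35, NMI (0.65 ± 0.13, adjusted p = 0.0119), the guanylate-binding protein GBP3 (0.85 ± 0.17, adjusted p = 0.0128) and LGALS3BP, a secreted glycoprotein (0.47 ± 0.11, adjusted p = 0.0242), rose too. CD274, the immune checkpoint ligand PD-L1, went the other way. It was at 1.41, 1.29 and 1.37 on resistant arrays, and at 8.75, 8.13 and 2.51 on parental arrays, and fell by 2.05 ± 0.42 on the log2 scale (adjusted p = 0.0155). A second CD274 probe set gave −0.80 and did not pass the test. The kinases JAK1 (−0.16 ± 0.17, adjusted p = 0.603) and TYK2 (0.38 ± 0.23, adjusted p = 0.333) did not pass the test. Single arrays decided some of these calls, as TLR3, NMI and GBP3 did not pass without resistant array 1 or 3 (adjusted p = 0.0585 to 0.0712), LGALS3BP without parental array 2 or any 1 resistant array (0.0622 to 0.117), and CD274 without any 1 array but parental array 3 (0.0592 to 0.0651).

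**Figure D4:**
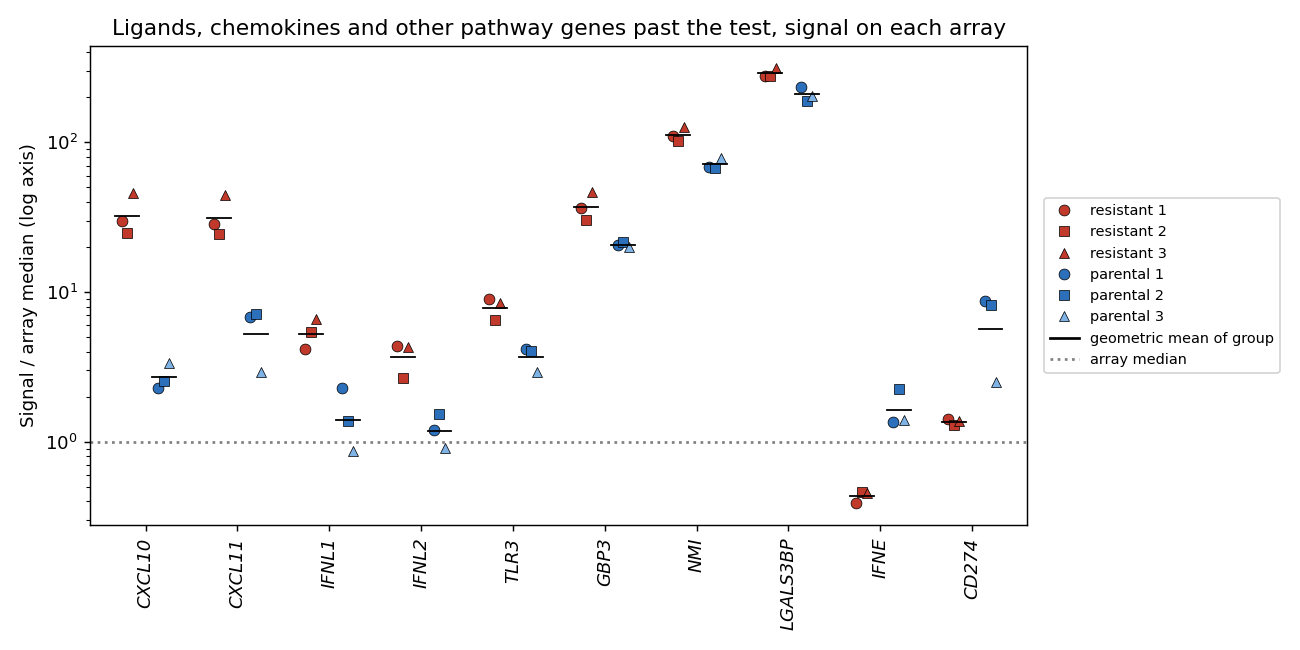
Signal of the 10 further pathway genes that passed the test, as multiples of the array median on a log axis, with 1 point per array and a line at the geometric mean of each group (3 resistant arrays in red, 3 parental arrays in blue, parental array 3 in light blue). CXCL10 and CXCL11 have the widest gaps with higher values in resistant cells, and IFNE, which passed the filter only through the parental arrays, and CD274 are lower in resistant cells.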

How the data were processed

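The authors deposited 1 linear intensity per probe set for each of 6 arrays (3 resistant, 3 parental). Per the submitters' processing notes MAS5 was used. Its version and the target it scaled to are not given in the sources. Later ratios of the authors were not used. Groups and replicate numbers came from the sample titles, and the same numbers in both groups did not pair the arrays. Pairs of arrays with identical values numbered 0. The precision is limited by the 3 arrays per group.

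After removal of 62 control probe sets, 54613 remained. Each intensity was divided by the array median (10.6 to 12.8 signal units), and log2 values were taken after 10 exact zeros had been raised to 0.05 units. The 26563 probe sets whose mean reached 1 times the median were tested in limma 3.58.1 (R 4.3.3; lmFit, eBayes with an intensity trend), with Benjamini-Hochberg adjustment. The fit was checked on simulated data. With 3 arrays per group the smallest exact permutation p is 0.1, and no such test was run. The brightest probe set stood for its gene. Names came from a platform annotation (41091 probe sets with 1 symbol, 1801 with several, 11721 not listed), of which 41037 were matched to RefSeq. Probe sets marked as sharing probes or reading several transcripts (among them those named for IFI16, IFNGR1, IFI35, IFI44 and the IFITM genes) can carry signal of other genes.

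The members and lists were chosen with earlier results of these data known, and the study's text names IFI16. Values per array were given, by rule, for members past the test, the 3 largest changes of each role, IFNAR1, IFNAR2, IFNGR1 and IRF9. They were also given for pathway genes past the test, except NMI, GBP3 and LGALS3BP. For these exceptions and for JAK1 and TYK2, the text gives the change and adjusted p only. IRF7, IFI44L, IFIT1, OAS3, DTX3L, ISG15, RSAD2 and IFIH1 got values per array after their values were seen. The 17 alternatives changed the scaling (quantile, none), the filter (none, 3 times the median) and low signals (25th percentile as a minimum, an offset of 0.5). They also changed the fit (no intensity trend, replicate number as a block, a plain t-test) and the arrays (each left out). The probe sets were changed too (mean of a gene's probe sets, shared ones left out).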

Additional observations from a re-analysis of the deposited data

How the results depend on the processing

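Of the 48 genes, 13 rose and 1 fell. The number that rose was 8 with no further scaling, 7 with no intensity trend, 0 in the plain t-test and 7 to 15 with 1 array left out. Apart from the t-test and the fit without parental array 3, numbers for all probe sets under these settings are not given here. The number that fell was 1 to 5 with 1 array left out (5 without parental array 3). It was 0 in the plain t-test and without shared probe sets. The setting without shared probe sets kept no probe set of IFI16 or IFI35, took the call from IFNGR1 (0.44) and measured 36 genes. The genes at least 2-fold higher numbered 2 to 5 with 1 array left out and 0 in the t-test, and those at least 2-fold lower 0 in the t-test and 0 without shared probe sets, in place of 4 and 1. In the t-test, 14 genes were higher and 1 lower at an unadjusted p below 0.05 (20 and 3 in limma), the lowest adjusted p was 0.0507, and 198 and 121 of all probe sets passed after adjustment. No share of all probe sets is given for the unadjusted counts.

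With the replicate number as a block, 10 genes rose and 1 fell, without EIF2AK2, TRIM21 and IFI35. The arrays share only a number: deviations of same-numbered arrays correlated at −0.018, −0.022 and −0.017, and 0 of 6 arrays correlated best with their own number.

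Directions turned for IFI44 without shared probe sets (−0.11) and, among genes not past the test, for OAS3 (−0.0040) and HERC5 (−0.0030) with no further scaling, IFITM1 (−0.034) and IFITM3 (−0.064) with quantile normalization, and SP100 (−0.020) as the mean of its probe sets. With 1 array left out, the changes of 11 genes took both signs, between −0.087 and 0.18 for OAS3, −0.041 and 0.40 for IRF1, −0.074 and 0.41 for IRF9, −0.037 and 0.33 for IFITM1, −0.089 and 0.30 for IFITM3, −0.18 and 0.33 for HERC5, −0.087 and 0.43 for HERC6, −0.069 and 0.47 for IFI6 (all 8 below 0 without parental array 3), −0.44 and 0.21 for IRF7, −0.54 and 0.12 for GBP1, and −0.38 and 0.080 for GBP2. The cause was not tested, except that the IFI44 value is that of its other probe set. The table holds no detection calls, so dim genes such as IFNE could be judged only against the array median.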
